A study of Mus musculus with 36 samples.

Results

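The brain small RNA libraries of 9-month-old mice were compared between APP/PS1 mice and wild-type mice, both labelled with the strain C57BL/6. Their members are the 3 APP/PS1 and the 3 wild-type miRNA libraries of that age, 6 of the 36 samples of the series, and every row of the deposited miRNA count table. APP/PS1 mice carry the APP695swe and PS1-dE9 transgenes, human genes with familial Alzheimer's disease mutations, and wild-type mice of the same age carry neither. The sources used here give no promoter, sex or brain region. The series holds the same groups at 6 months, with 3 kinds of library (miRNA, long RNA and circRNA) from each. Since no label ties the 3 libraries of a group to different animals, the p-values refer to the scatter among libraries, and part or all of that scatter may be technical. The extraction text names retinas while the tissue label reads brain. The miR-183, miR-96 and miR-182 cluster, abundant in photoreceptors, summed to 114 to 229 CPM, the read count scaled to 1000000 reads, over the 6 libraries, against 115861 to 133043 CPM for miR-9-5p, a miRNA of neural tissue. No library of known retina or brain was set beside these, so the levels do not settle which tissue was used.

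A miRNA is a short RNA that guides an Argonaute protein to messenger RNAs. Pairing runs mainly through the seed, bases 2 to 8 of the mature strand, so miRNAs with one seed share many targets. Each hairpin precursor gives a 5p and a 3p arm, and often only one of them accumulates. In models of Alzheimer's disease, miRNAs have been studied as regulators of App and Bace1, of synaptic genes and of the inflammatory response of microglia around plaques.

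The mature strands on which the results turn are shown 5′ to 3′ as RefSeq gives them for GRCm38.p6, with the seed in capitals. The first set is the miR-29 family, whose 3p arms share a seed and differ in bases after it.
miR-29a-3p: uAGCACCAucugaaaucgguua
miR-29b-3p: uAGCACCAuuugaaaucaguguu
miR-29c-3p: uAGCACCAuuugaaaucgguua
The next set was high in only 2 wild-type libraries of 9 months, as miR-29b-3p was.
miR-376a-3p: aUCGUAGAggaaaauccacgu
miR-136-5p: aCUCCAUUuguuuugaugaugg
miR-153-3p: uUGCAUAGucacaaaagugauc
The miR-128 locus gives a 3p arm that is the same from both its hairpins and a 5p arm that tells them apart.
miR-128-3p: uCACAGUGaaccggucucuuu
miR-128-2-5p: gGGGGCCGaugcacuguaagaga
Hairpins within the serotonin receptor gene Htr2c and ciliated-cell miRNAs with the miR-34 seed gave the following strands.
miR-1298-5p: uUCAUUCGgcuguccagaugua
miR-448-3p: uUGCAUAUguaggaugucccau
miR-1912-3p: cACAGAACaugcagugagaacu
miR-34b-5p: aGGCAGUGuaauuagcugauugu
miR-449a-5p: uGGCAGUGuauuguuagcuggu
The last pair lies on opposite strands of one place in the genome, which bears on how its reads were counted.
miR-9-5p: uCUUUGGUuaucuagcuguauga
miR-9b-3p: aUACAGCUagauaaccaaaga

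In GRCm38.p6, miR-29b-3p is encoded by Mir29b-2 at chr1:195037091-195037113 on the plus strand within the noncoding gene A330023F24Rik, beside miR-29c, and by Mir29b-1 at chr6:31063025-31063047 on the minus strand beside miR-29a, outside annotated genes. miR-376a-3p lies at chr12:109723824-109723844 and miR-136-5p at chr12:109595331-109595352, both on the plus strand, the second opposite Rtl1. miR-153-3p lies at chr12:117250860-117250881 within the span of Ptprn2. miR-128-3p lies at chr1:128202404-128202424 within R3hdm1 and at chr9:112118644-112118664 on the minus strand within Arpp21, where miR-128-2-5p is at chr9:112118679-112118701. miR-1912-3p, miR-1298-5p and miR-448-3p follow each other on the plus strand of the X chromosome within Htr2c, at chrX:147009493-147009514, chrX:147064918-147064939 and chrX:147158281-147158302. miR-9-5p has a copy at chr13:83738821-83738843 on the plus strand, and miR-9b-3p is annotated at chr13:83738821-83738841 on the minus strand.

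The 6 libraries held 5426658 to 7925799 reads in the table and 910 to 989 rows with at least 1 read. The table has 1411 rows, 1312 of them named mouse miRNAs and 99 predicted ones. At 9 months 1289 rows had a read, and 560 rows, 5 of them predicted, passed the filter on low counts and were tested. The 10 most abundant rows took 57.1% to 60.1% of the reads in each library. By mean CPM these were miR-9-5p, miR-9b-3p, miR-99a-5p, miR-128-3p, let-7f-5p, miR-127-3p, miR-148a-3p, let-7g-5p, miR-218-5p and miR-26a-5p. The levels ran from 123827 ± 6918 CPM (SD over the 6 libraries) for miR-9-5p to 30326 ± 2808 CPM for miR-26a-5p. Levels are CPM after TMM scaling, and no length term is needed for mature miRNAs.

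No miRNA passed the test between APP/PS1 and wild type at 9 months. With edgeR's quasi-likelihood test and Benjamini-Hochberg adjustment over the 560 rows, 0% were called at an adjusted p under 0.05, and the smallest adjusted p was 0.464. At an unadjusted p under 0.05 there were 29 rows (5.18%), against 28 that this threshold gives when nothing differs. Of these, 12 were higher in APP/PS1 (2.14%) and 17 lower (3.04%). The split moved with single libraries of 9 months. It was 14 higher and 32 lower without wild-type library 3, 21 and 15 without APP/PS1 library 2, and 4 and 13 without APP/PS1 library 3. DESeq2's Wald test on the same rows called 2, both lower in APP/PS1, and limma voom called 0, with 23 and 27 rows at an unadjusted p under 0.05. The median log2 change over all tested rows was 0.01. The 95% interval of the change lay within 1 log2 unit of 0 for 450 rows and within 1.5-fold for 319, so changes larger than these bounds lie outside the interval of those rows.

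**Figure D1:**
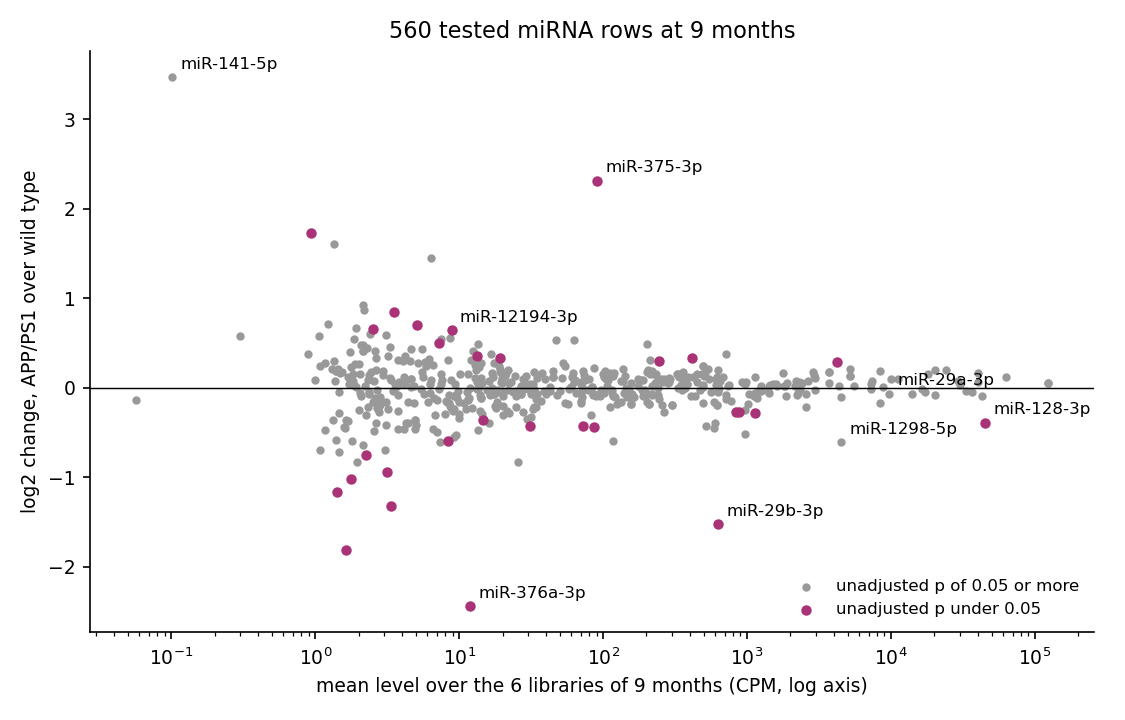
Log2 change of the 560 tested rows at 9 months, APP/PS1 over wild type (vertical axis), against the mean level over the 6 libraries (horizontal axis, CPM, log scale). Points with an unadjusted p under 0.05 are dark. Most rows above 100 CPM lie close to 0, with miR-29b-3p apart from them.

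Among the 15 miRNAs with the smallest unadjusted p, 9 had lower and 6 higher estimates in APP/PS1. miR-376a-3p, from the imprinted Dlk1-Dio3 cluster on chromosome 12, had 22.2, 32.9 and 5.40 CPM in wild-type libraries 1 to 3 and 4.81, 2.82 and 3.37 CPM in APP/PS1 libraries 1 to 3. The groups did not overlap, yet the third wild-type library sat beside the APP/PS1 libraries and wild-type libraries 1 and 2 stood far above them. The log2 change was -2.44 (SE 0.53, adjusted p = 0.464). miR-12194-3p, a little-described miRNA whose hairpin lies within the span of Nbea on chromosome 3, differed by a similar amount in every library. It measured 7.28, 6.45 and 7.02 CPM in wild type and 11.0, 10.6 and 10.8 CPM in APP/PS1, a log2 change of 0.64 (SE 0.17, adjusted p = 0.464 by edgeR). All 3 APP/PS1 libraries were above all 3 wild-type libraries by more than either group's spread, at 39 to 87 reads per library. At 6 months the same miRNA had 7.67 to 8.61 CPM in wild type and 8.17 to 9.85 CPM in APP/PS1, with overlap.

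miR-134-3p, the minor arm of a miRNA that represses Limk1 in dendrites, had 3.73, 4.19 and 3.78 CPM in wild type and 6.83, 5.28 and 6.91 CPM in APP/PS1 (log2 change 0.70, SE 0.23). Its groups did not overlap, while the far more abundant arm miR-134-5p had a log2 change of 0.16 at a mean of 233 CPM. miR-149-5p, encoded in the heparan sulfate proteoglycan gene Gpc1, measured 372, 407 and 315 CPM in wild type and 473, 431 and 474 CPM in APP/PS1 (log2 change 0.33, SE 0.12). Again the APP/PS1 libraries lay above, by a small margin between the second libraries of the groups. The Gpc1 mRNA had a log2 change of 0.04 in the long RNA libraries, with 27.7 ± 0.159 FPKM in wild type and 28.3 ± 0.479 FPKM in APP/PS1 (SD, n = 3). miR-187-3p had 205 to 243 CPM in wild type and 257 to 287 CPM in APP/PS1. miR-6989-3p had 0 to 0.720 CPM and 0.759 to 1.94 CPM, or 0 to 11 reads per library.

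On the lower side, miR-491-5p had 9.95, 10.3 and 10.1 CPM in wild type and 8.48, 6.16 and 5.30 CPM in APP/PS1 (log2 change -0.59, SE 0.20). The wild-type libraries were nearly equal and every APP/PS1 library was below them. miR-10b-5p, a HoxD cluster miRNA typical of caudal neural tissue, had 30.5, 43.0 and 32.8 CPM in wild type and 26.6, 25.7 and 26.8 CPM in APP/PS1 (log2 change -0.43, SE 0.16). Its groups did not overlap, but the related miR-10a-5p, with a log2 change of 0.06, did not share that order. miR-301a-3p, from an intron of Ska2, had 1.77 to 2.13 CPM in wild type and 0.321 to 1.41 CPM in APP/PS1, with no overlap and few reads. The other named rows, miR-29b-3p, miR-29c-3p, miR-99a-3p, miR-34b-5p, miR-1912-3p and miR-375-3p, are described with the libraries they follow. Over all 560 rows, the 3 APP/PS1 libraries lay above the 3 wild-type libraries without overlap in 33 (5.89%) and below in 34 (6.07%).

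**Figure D2:**
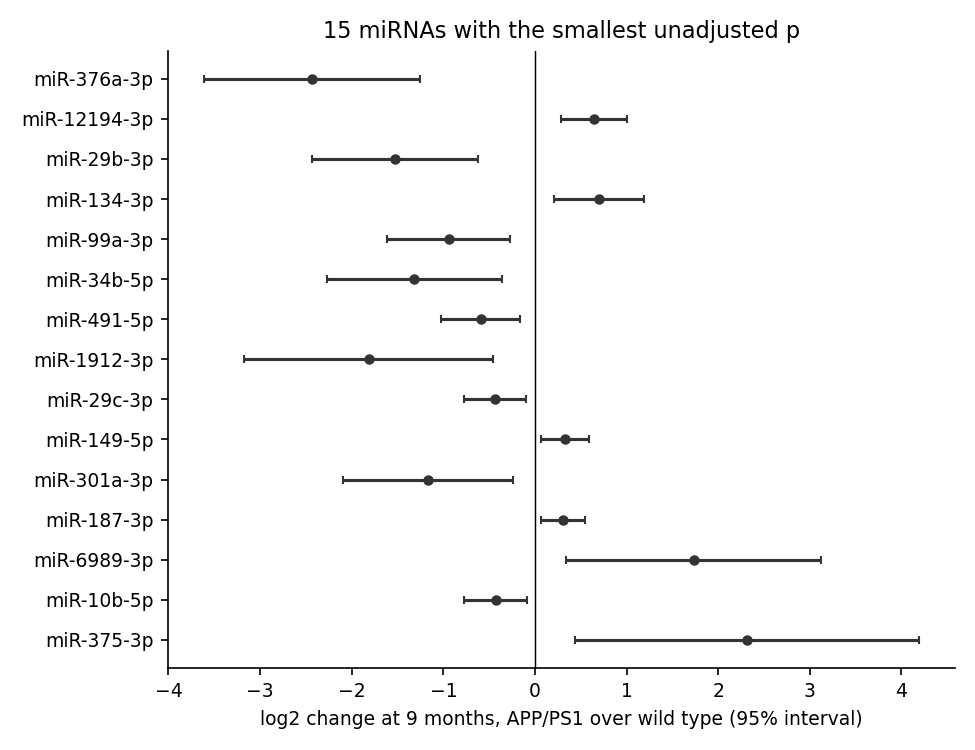
Log2 change at 9 months with its 95% interval (horizontal axis, APP/PS1 over wild type) for the 15 miRNAs with the smallest unadjusted p in edgeR's test. 9 estimates lie below 0 and 6 above, and none passed the adjusted threshold.

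Several of the lower estimates, among them those of miR-376a-3p and miR-29b-3p, rested on wild-type libraries 1 and 2. miR-29b-3p, a brain-abundant miRNA reported to target Bace1 and extracellular matrix genes, had 1237 and 1218 CPM in these libraries and 345 CPM in wild-type library 3. The APP/PS1 libraries had 352, 331 and 289 CPM. The third wild-type library therefore lay inside the APP/PS1 range, and the 6 libraries of 6 months, at 306 to 350 CPM, lay at the same lower level. The log2 change was -1.53 (SE 0.40, 95% interval -2.43 to -0.62, adjusted p = 0.726 by edgeR). DESeq2 called this row (adjusted p = 0.0237) and miR-376a-3p (adjusted p = 4.75e-05).

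The family members that share the miR-29b-3p seed differed in this. miR-29a-3p, the most abundant of them at a mean of 9660 CPM, had 10720, 9365 and 9560 CPM in wild type and 9423, 9344 and 9550 CPM in APP/PS1, a log2 change of -0.07 (95% interval -0.28 to 0.14). Its groups overlapped, with wild-type library 1 above the other 5 libraries of 9 months by a small factor and library 2 among them. miR-29c-3p had 119, 102 and 75.8 CPM in wild type and 77.8, 65.9 and 75.0 CPM in APP/PS1 (log2 change -0.44, SE 0.16), so libraries 1 and 2 of wild type were again the high ones. The 5p arms miR-29b-2-5p and miR-29c-5p had log2 changes of -0.22 and 0.10. At a mean of 239 CPM, miR-29c-5p was more abundant than miR-29c-3p, at 85.9 CPM. Summed over the 7 tested arms of the family, the level was 12339, 10957 and 10287 CPM in wild type and 10150, 10043 and 10188 CPM in APP/PS1, since miR-29a-3p makes up most of it.

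In all, 30 of the 560 rows were higher in both of these wild-type libraries than in each of the 10 other miRNA libraries of either age, 12 of them by at least 1.5-fold on the means. The ratio was 6.83 for miR-376a-3p, 3.76 for miR-29b-3p, 2.18 for miR-99a-3p, 2.05 for miR-377-3p and 2.04 for miR-34b-5p. miR-153-3p, a brain-enriched miRNA reported to target App, had 188, 172 and 61.6 CPM in wild type against 104, 104 and 70.5 CPM in APP/PS1. miR-136-5p, transcribed antisense to Rtl1 in the Dlk1-Dio3 cluster, had 774, 849 and 400 CPM against 531, 505 and 451 CPM. For both, library 3 of wild type was the lowest of the 6 libraries and libraries 1 and 2 were the highest. miR-99a-3p had 5.33, 4.67 and 2.52 CPM in wild type and 2.28, 2.29 and 1.93 CPM in APP/PS1, while its abundant partner arm miR-99a-5p had a log2 change of 0.12. The opposite arm of miR-376a-3p, miR-376a-5p, had 30.7, 27.1 and 21.4 CPM against 22.0, 27.8 and 26.2 CPM, with a log2 change of -0.06. These rows were grouped after their values were seen, so no test is given for the group. The mature strands of the 12 rows had a median A and U content of 60.9%, against 52.2% over the 479 tested rows with a RefSeq sequence. The 12 rows include miR-219a-5p and miR-219b-3p, which lie on opposite strands of one place in the genome.

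**Figure D3:**
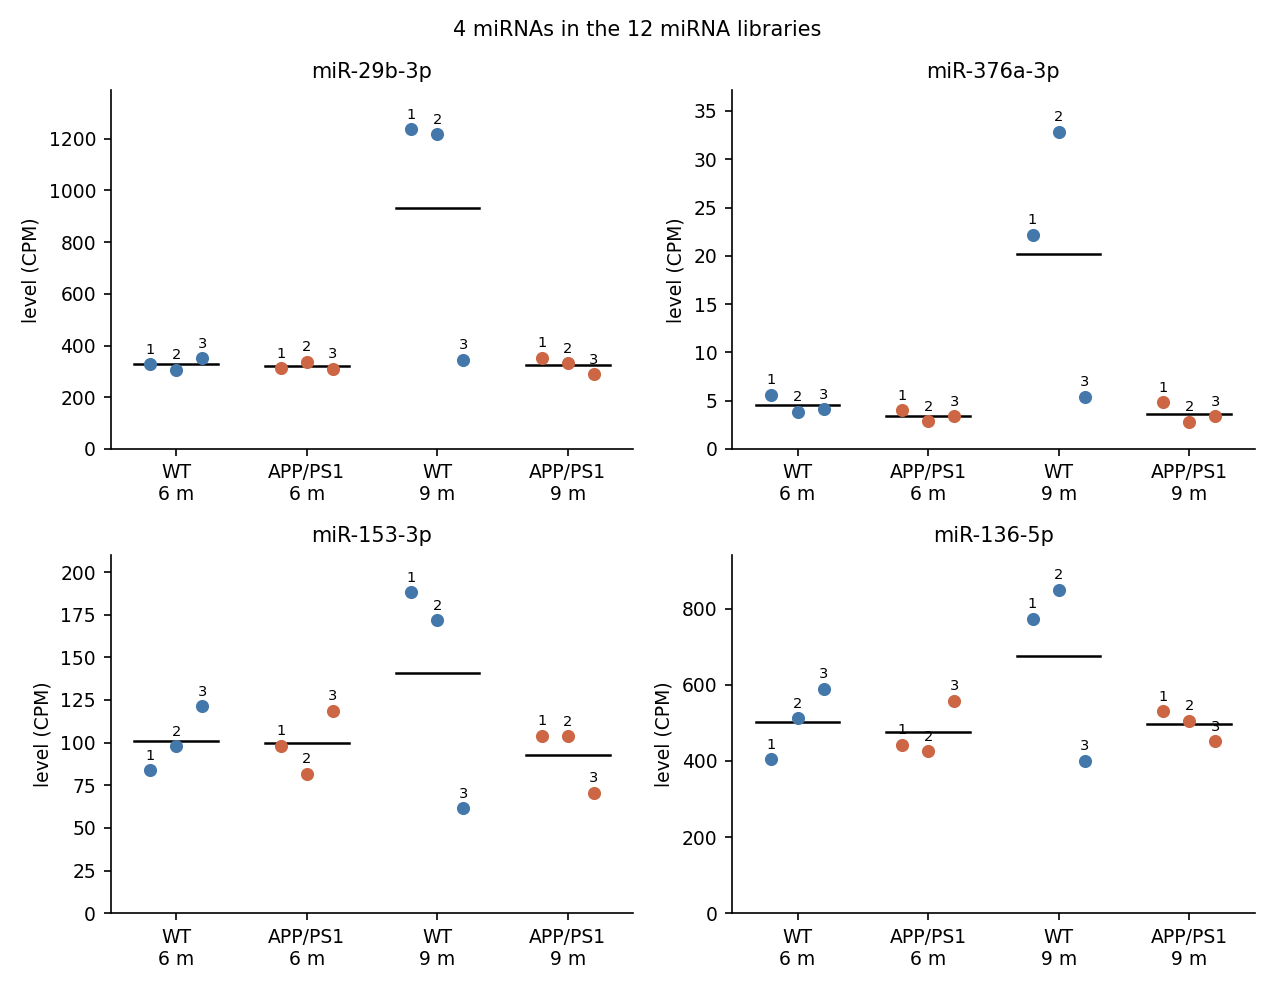
Levels of 4 miRNAs in CPM (vertical axes) in the 12 miRNA libraries, wild type (WT, blue) and APP/PS1 (orange) at 6 and 9 months (m); digits are library numbers and bars are group means. Wild-type libraries 1 and 2 of 9 months lie above all others, and library 3 does not.

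The calls depended on these libraries. Without wild-type library 3 of 9 months, edgeR's test called 4 of 573 rows, all lower in APP/PS1. They were miR-29b-3p (log2 change -1.93, adjusted p = 7.85e-09), miR-376a-3p (-2.89, adjusted p = 1.89e-06), miR-153-3p (-0.96, adjusted p = 0.0312) and miR-136-5p (-0.72, adjusted p = 0.0330). Without libraries 1 and 2, 0 of 606 rows were called, and the changes were -0.08 for miR-29b-3p and -0.53 for miR-376a-3p, with miR-153-3p at 0.60 and miR-136-5p at 0.32, both on the other side of 0. In that fit 38 rows had an unadjusted p under 0.05, and the lone wild-type library was assumed to vary like the other groups. What sets libraries 1 and 2 apart from library 3 was not tested, and no label separates them.

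miR-128-3p, a neuronal miRNA that dampens excitability and the fourth most abundant row, had lower levels in APP/PS1 in every library of both ages. At 9 months it measured 43902, 44186 and 65603 CPM in wild type and 40430, 38467 and 38417 CPM in APP/PS1. At 6 months it measured 62584, 54032 and 44261 CPM against 41972, 33561 and 43780 CPM. The lowest wild-type library was only just above the highest APP/PS1 library, and the spread within wild type was wide at both ages. Of the 560 rows, this was the single one (0.179%) with all 6 APP/PS1 libraries below all 6 wild-type libraries. miR-425-3p was the single one (0.179%) with all 6 above, at 17.1 to 22.4 CPM against 14.8 to 17.0 CPM. Both were singled out after their values were seen. The log2 change of miR-128-3p at 9 months was -0.39 (SE 0.16, 95% interval -0.73 to -0.05, adjusted p = 0.845 by edgeR), and -0.18 without wild-type library 3.

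Mature miR-128-3p comes from 2 hairpins, Mir128-1 in an intron of R3hdm1 on chromosome 1 and Mir128-2 in an intron of Arpp21, which encodes a cyclic-AMP-regulated phosphoprotein of neurons, on chromosome 9. Their 5p arms tell the loci apart. miR-128-2-5p, from Arpp21, had 7.10, 5.96 and 10.1 CPM in wild type and 6.83, 4.58 and 5.14 CPM in APP/PS1 at 9 months, a log2 change of -0.46 (SE 0.26) with overlap. miR-128-1-5p, from R3hdm1, had 33.2, 26.3 and 40.9 CPM and 37.1, 33.6 and 37.4 CPM, a log2 change of 0.11 (SE 0.15). In both arms wild-type library 3 was the highest of its group, as for miR-128-3p.

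In the long RNA libraries of 9 months, the Arpp21 mRNA fell from 62.6 ± 3.42 FPKM in wild type to 45.1 ± 0.481 FPKM in APP/PS1 (SD, n = 3). The single libraries had 66.4, 59.7 and 61.7 FPKM against 44.6, 45.5 and 45.3 FPKM, with a wide gap between the groups. The log2 change was -0.47 (SE 0.07, adjusted p = 0.0335 by limma over 13593 genes, of which 0.0956% were called). At 6 months the levels were 57.3 to 70.1 FPKM in wild type and 46.7 to 50.9 FPKM in APP/PS1, also without overlap. R3hdm1, the other host, had 62.2 ± 4.19 FPKM in wild type and 56.2 ± 4.59 FPKM in APP/PS1 (log2 change -0.15, adjusted p = 0.582 by limma). The Arpp21 call was near its threshold. It held in 3 of 12 fits that each left out 1 library, those without wild-type library 1 or 3 of 6 months or APP/PS1 library 1 of 6 months. It was lost without any other library, with changes of -0.50 to -0.43 and adjusted p of 0.00566 to 0.213 over the 12 fits. It was also lost without the filter on low values (adjusted p = 0.0544). The long RNA reads were deposited as FPKM, so their depth is unknown.

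**Figure D4:**
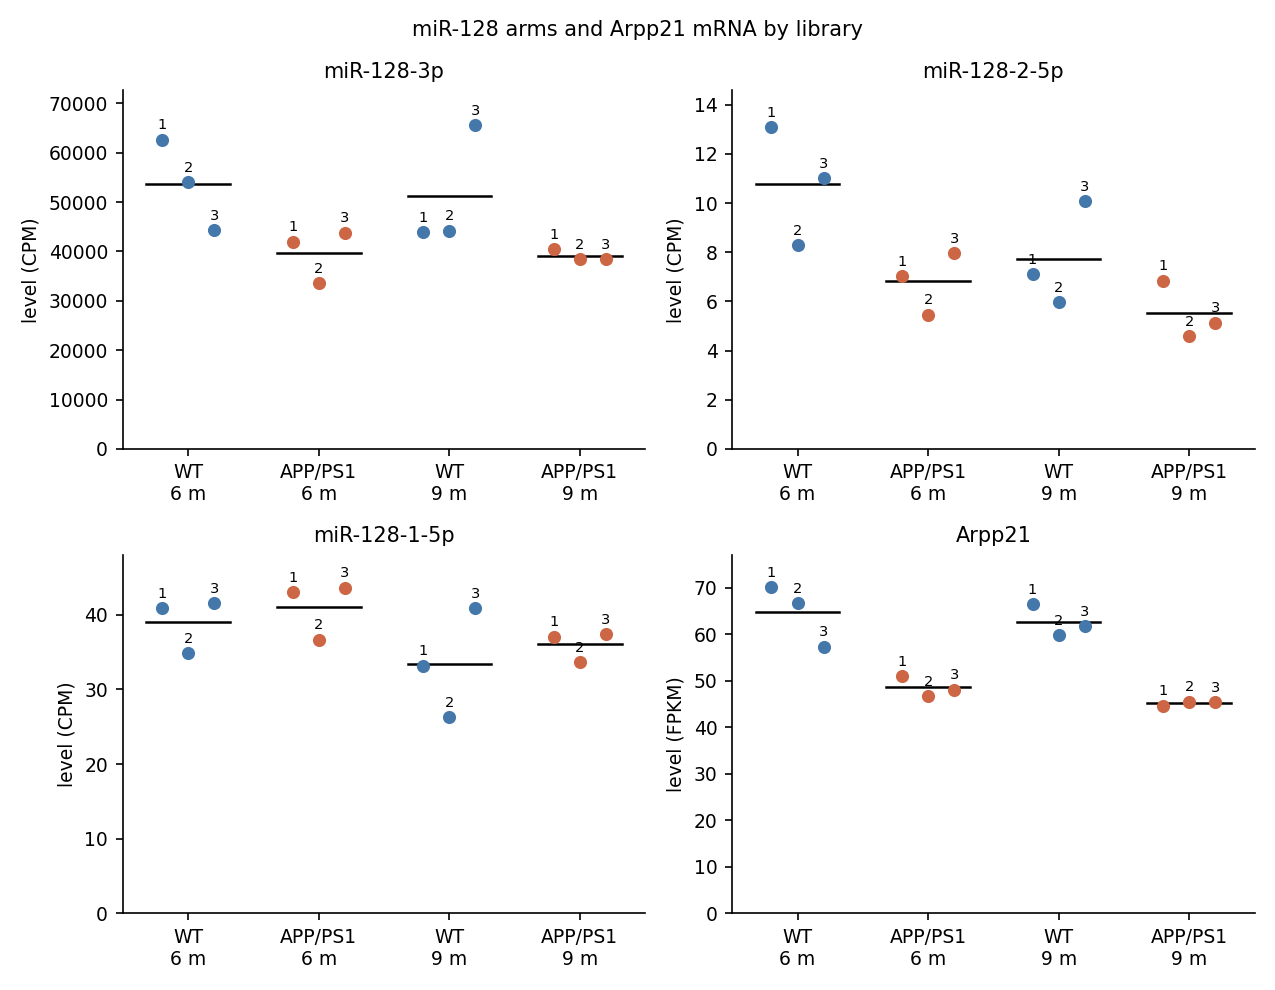
Levels of miR-128-3p, of the 5p arms of its 2 hairpins (CPM) and of the Arpp21 mRNA (FPKM), on vertical axes from 0, in wild type (WT, blue) and APP/PS1 (orange) at 6 and 9 months (m); digits are library numbers and bars are group means. All APP/PS1 points lie below all wild-type points for miR-128-3p and Arpp21, but not for the 5p arms.

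Of 42 host genes of brain miRNAs, 40 were tested in the long RNA libraries, with 19 higher and 21 lower estimates, and Arpp21 was the 1 that passed. Their median log2 change was -0.01, against 0.01 over all 13593 genes. The genes that make and use miRNAs gave no call. The 23 tested gene records of this kind included Drosha and Dgcr8, which cut the primary transcript, Xpo5, which exports the hairpin, Dicer1 and the Argonautes Ago1 to Ago4. Of these records 10 had higher and 13 lower estimates, 4 had an unadjusted p under 0.05 by limma, against 9.73% of all genes, and the smallest adjusted p was 0.294. Drosha had 25.2 FPKM in wild type and 24.8 FPKM in APP/PS1 on average, Dicer1 6.77 and 7.37 FPKM, and Ago2 19.1 and 17.6 FPKM. A second gene record under the symbol Dgcr8 was listed at 0 in all 3 wild-type libraries of 9 months and at 4.11 to 4.25 FPKM in APP/PS1, and an exact 0 in an FPKM table can be a failed estimate. The main Dgcr8 record had 5.31 ± 0.355 and 4.70 ± 0.0628 FPKM.

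A separate pattern ran through miRNAs of the choroid plexus, the epithelium that secretes cerebrospinal fluid, and of ciliated ependyma. Htr2c is strongly expressed in choroid plexus, and its introns carry miR-1298, miR-448, miR-1264, miR-1912 and miR-764. miR-1298-5p, the most abundant of them, had 5054, 5044 and 6300 CPM in wild type and 3066, 2610 and 5072 CPM in APP/PS1 (log2 change -0.61, 95% interval -2.04 to 0.83). APP/PS1 libraries 1 and 2 were low, and library 3 lay among the wild-type ones. miR-448-3p had 35.5, 28.4 and 34.0 CPM against 15.9, 14.6 and 24.6 CPM, with no overlap (log2 change -0.83, SE 0.56). miR-1912-3p had 3.20, 1.77 and 2.70 CPM against 0.506, 0.176 and 1.45 CPM, or 1 to 18 reads per library (log2 change -1.81, SE 0.64, adjusted p = 0.726 by edgeR). Its change was -2.75 without APP/PS1 library 3 and -1.43 without APP/PS1 library 2.

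Of the 7 tested Htr2c arms 1 had a higher and 6 a lower estimate, with a median log2 change of -0.21 against 0.01 over all rows, and none passed. The Htr2c mRNA itself, which many neurons also express, had 13.4 ± 0.689 FPKM in wild type and 12.6 ± 0.589 FPKM in APP/PS1 (log2 change -0.09, adjusted p = 0.781 by limma).

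The ciliated-cell and choroid plexus list holds the miR-34b and miR-34c cluster, which with miR-449 is needed for multiciliated cells, and miR-204 from an intron of Trpm3. All 7 of its tested arms had lower estimates in APP/PS1, with a median of -0.43, and none passed. The change was smallest for miR-449a-5p, at -0.11. Another member, miR-211-5p, had a mean of 1.14 CPM and was removed by the filter on low counts. With no filter it was the 1 row called, and it was higher in APP/PS1 (adjusted p = 0.0325 by edgeR). miR-34c-5p had 1150, 1147 and 1132 CPM in wild type and 653, 732 and 1009 CPM in APP/PS1, with no overlap (log2 change -0.52, SE 0.29). miR-204-5p had 567, 545 and 683 CPM against 391, 394 and 551 CPM, where library 3 of APP/PS1 again reached the wild-type range (log2 change -0.43, SE 0.28). miR-34b-5p had 5.86, 5.64 and 3.06 CPM against 2.40, 1.06 and 2.25 CPM (log2 change -1.32, SE 0.45), and it belongs also to the rows that were high in wild-type libraries 1 and 2. By contrast miR-34a-5p, which has the same seed and is transcribed in many cell types, had a log2 change of 0.03. Summed, the list measured 1769, 1755 and 1883 CPM in wild type and 1087, 1169 and 1620 CPM in APP/PS1.

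The mRNA markers of choroid plexus were low in the same libraries, by group and number, as these miRNAs. Ttr, which encodes transthyretin, had 286, 317 and 325 FPKM in wild type and 102, 66.4 and 273 FPKM in APP/PS1 at 9 months. All 15 tested choroid plexus mRNAs had lower estimates in APP/PS1, with a median log2 change of -0.73, and 0 passed limma's test. 0 of the 15 had an unadjusted p under 0.05. Their mean log2 level was 1.55, 1.70 and 1.78 in the wild-type libraries and 0.84, 0.36 and 1.54 in APP/PS1, so libraries 1 and 2 were low and library 3 was not. At 6 months wild-type libraries 1 and 3 and APP/PS1 library 1 had the low Ttr levels, 1.34, 6.94 and 90.7 FPKM, and the low miR-1298-5p levels, 1202, 1403 and 2414 CPM. The remaining 3 libraries of that age had 267 to 302 FPKM of Ttr and 4711 to 5957 CPM of miR-1298-5p. An alternative fit, chosen after seeing the data, took the choroid mRNA level of each library as a covariate. The log2 change was then 0.04 for miR-1298-5p, -0.23 for miR-448-3p, -0.20 for miR-34c-5p and -0.12 for miR-204-5p. These miRNAs were already seen to be low where that level was low. Smaller changes were therefore built into the fit, and it tests no cause. In bulk tissue, fewer cells of a type and less RNA per cell cannot be told apart. What set the low libraries apart from others of the same group was not tested.

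**Figure D5:**
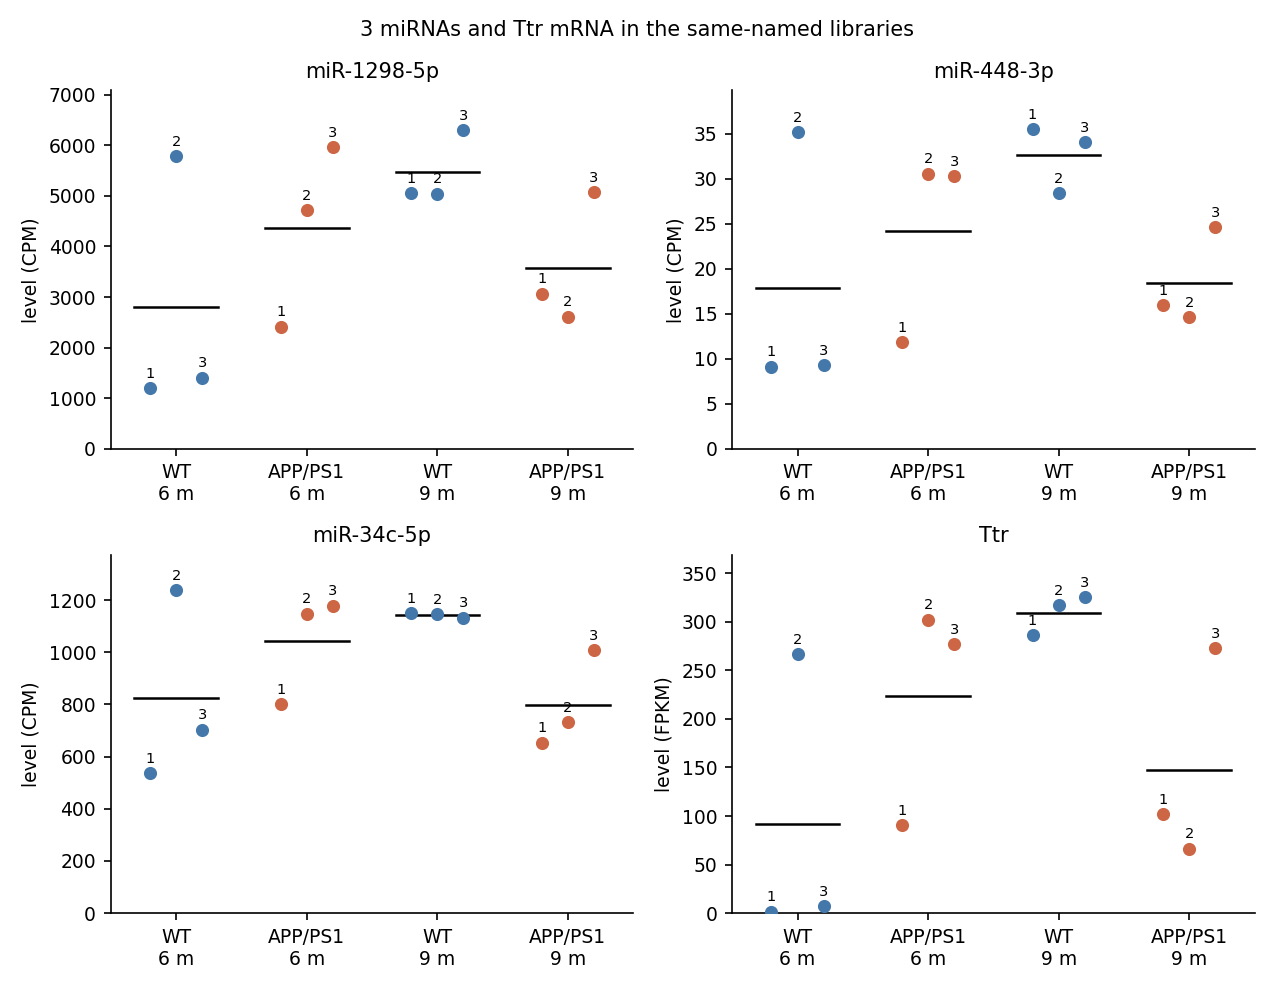
Levels of miR-1298-5p, miR-448-3p and miR-34c-5p (CPM) and of Ttr mRNA (FPKM), on vertical axes from 0, in wild type (WT, blue) and APP/PS1 (orange) at 6 and 9 months (m); digits are library numbers and bars are group means. The libraries low in Ttr are those low in the miRNAs, in both genotypes.

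miR-375-3p and the miR-200 family had their highest level of 9 months in APP/PS1 library 3. miR-375-3p, a miRNA of pituitary and other hormone-secreting cells, had 21.8, 43.0 and 25.8 CPM in wild type and 63.0, 33.6 and 354 CPM in APP/PS1. One library carried the difference and the rest overlapped. The log2 change was 2.31 (SE 0.82, adjusted p = 0.812 by edgeR), and 0.66 without APP/PS1 library 3. The miR-200 family, which marks epithelia and also pituitary and olfactory cells, summed to 73.7, 108 and 137 CPM in wild type and 104, 107 and 271 CPM in APP/PS1. Its 8 tested arms all had higher estimates with a median log2 change of 0.57, and none passed or had an unadjusted p under 0.05. Among them, miR-141-5p and miR-200b-5p passed the filter through other libraries and had very few reads at 9 months (means of 0.101 and 0.301 CPM). Their fitted changes of 3.47 and 0.58 are not interpretable, although both count among the 8 arms and in the median. Of the 6 tested arms of the pituitary and endocrine list, all had higher estimates and none passed. Their sum, mostly miR-7a-5p, was 22305, 24474 and 18746 CPM against 16896, 31770 and 26558 CPM, with library 2 of APP/PS1 the highest.

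Inflammatory miRNAs gave no call at an age when plaques are known in this model. Of 9 tested arms 4 had higher and 5 lower estimates, with a median log2 change of -0.03. miR-146a-5p, which restrains NF-kB signalling, had 454, 606 and 807 CPM in wild type and 749, 900 and 775 CPM in APP/PS1 (log2 change 0.38, 95% interval -0.00 to 0.76), with overlap through wild-type library 3. miR-21a-5p had 6548 to 7666 CPM in wild type and 7332 to 7454 CPM in APP/PS1 (log2 change 0.04, 95% interval -0.15 to 0.23). miR-155-5p, induced in activated macrophages and microglia, was rare at 3.55, 5.48 and 4.32 CPM against 4.43, 3.35 and 6.59 CPM. miR-223-3p, a neutrophil and monocyte miRNA, had 2.49 to 3.87 CPM against 1.90 to 2.41 CPM, at a log2 change of -0.48 (95% interval -1.21 to 0.26).

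miRNAs reported to target App or Bace1 had 29 tested arms, with 11 higher and 18 lower estimates and a median of -0.04. 2 had an unadjusted p under 0.05, against 5.18% of all tested rows. They were miR-29b-3p and miR-29c-3p, both high in wild-type libraries 1 and 2. miR-9-5p had a log2 change of 0.05, miR-101a-3p -0.11 and miR-124-3p 0.06. Among 18 tested neuron-enriched arms, 7 had higher and 11 lower estimates with a median of -0.03, and miR-128-3p was the 1 with an unadjusted p under 0.05. The activity-regulated miR-132-3p, often reported low in Alzheimer's disease brain, had 1460, 1375 and 1500 CPM against 1457, 1351 and 1348 CPM (log2 change -0.06, 95% interval -0.26 to 0.14). Its groups overlapped, and a 1.5-fold change lies outside the interval. Oligodendrocyte miRNAs (7 tested, median 0.05) and vessel miRNAs (8 tested, median -0.11) gave no call.

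Larger groups lay close to 0. The Dlk1-Dio3 locus, a maternally expressed cluster with 82 tested arms, had 43 higher and 39 lower estimates, a median of 0.01 and summed levels of 105366 to 110728 CPM in wild type and 109244 to 114697 CPM in APP/PS1. Of its arms 9 were above and 4 below without overlap, against 5.89% and 6.07% of all tested rows. The let-7 family, which holds cells in a differentiated state, had 3 higher and 15 lower estimates of 18, with a median of -0.09 and overlap in all but 1. The miR-30 family had 7 higher and 5 lower of 12, with a median of 0.01. The Sfmbt2 intron cluster, a rodent miRNA expansion, had 12 higher and 4 lower of 16 and a median of 0.08. Its sum was 978, 965 and 907 CPM in wild type and 1097, 1066 and 1179 CPM in APP/PS1. The groups did not overlap there, and most of the sum came from miR-467a-5p and miR-467b-5p, whose rows held equal counts in all 6 libraries of 9 months. The miR-17-92 clusters (5 higher, 6 lower), the miR-148 family (4 and 2) and the red blood cell miRNAs (0 and 5) had medians of -0.07, 0.07 and -0.09.

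The difference between the genotype effects at 9 and 6 months also gave no call. With edgeR's test of that difference 0% of the 560 rows passed, the smallest adjusted p was 0.431 and 33 rows (5.89%) had an unadjusted p under 0.05, while DESeq2 and voom each called 0, with 29 and 37 rows at an unadjusted p under 0.05. The rows with the smallest p were miR-365-3p and miR-193b-3p, which share a cluster. miR-365-3p had 45.6, 39.3 and 43.2 CPM in wild type and 42.4, 55.1 and 42.3 CPM in APP/PS1 at 9 months, against 59.9, 47.6 and 43.3 CPM and 31.4, 34.6 and 31.3 CPM at 6 months. miR-467a-3p and miR-467d-3p, with equal counts, and miR-1912-3p followed. The genotype difference of miR-1912-3p was -1.81 at 9 months and 0.95 at 6 months on the log2 scale, and at both ages it was lowest in libraries with low Ttr.

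Some rows of the table cannot be told apart. At 31 places a pair of mature miRNAs with reads at 9 months are annotated on opposite strands over at least 15 shared bases, and 22 of these pairs had at least 100 reads. In 10 of the 22 the counts of the partners were within 5% of each other, and in 2 they were equal in all 6 libraries, miR-338-3p with miR-3065-5p (11191 reads each) and miR-142a-3p with miR-142b (531 reads each). miR-9-5p had 4613807 reads and miR-9b-3p 4603938. The miR-9b-3p strand printed above is antisense to miR-9-5p, and its row took 11.4% to 13.1% of each library's total. Other pairs were far apart, such as miR-126a-3p with 910301 reads and miR-126b-5p with 7699. No source used here says whether counting used strand, so the level of miR-9b-3p and of the like-counted partners is uncertain. miR-136-5p, one of the rows that followed wild-type libraries 1 and 2, is also such a partner, with 21728 reads beside 36142 for miR-3071-3p. The miR-3071-3p row followed these libraries too. So did both rows of the pairs miR-219a-5p with miR-219b-3p (352 and 341 reads) and miR-338-3p with miR-3065-5p. The set of rows that followed these libraries may therefore count some reads more than once.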

How the data were processed

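Mouse brain small RNA libraries of 9 months (3 APP/PS1, 3 wild type) were compared, with 6 libraries of 6 months in the same fit. The authors deposited whole-number read counts per miRNA beside values they named TPM, which equalled the count per total and are CPM, and a table of FPKM per transcript for the long RNA libraries. Bowtie 0.12.2 and the build mm8 appear in the submitters' processing notes without a stated role. The counting tool and the strand setting: not given in the sources used here. Of the per-sample columns of these tables all were used.

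Counts were fitted with edgeR 4.0.16 (filterByExpr, TMM, glmQLFit robust, glmQLFTest) in R 4.3.3, with 4 group means over 12 libraries and Benjamini-Hochberg adjustment. SEs restate the test, as |log2 change| over the root of F. FPKM were summed per gene, kept at a mean of at least 0.5 and tested as log2(FPKM + 0.25) with limma 3.58.1, so that fold changes are on that scale and understate low genes. DESeq2 1.42.0 was an alternative. The fits were checked on simulated data. Library numbers showed no clear pairing of the groups at 9 months. Replicate libraries differed by 27.8 to 176 chi-square units per degree of freedom, above sampling noise. The value of 27.8 was for wild-type libraries 1 and 2. Against these, wild-type library 3 gave 176 and 163, and the APP/PS1 pairs gave 78.0 to 103. Of 1312 named rows, 1125 matched a RefSeq mature sequence (GRCm38.p6).

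Named were the 15 rows with the smallest p (fewer than 10 being called), the 10 most abundant, up to 4 abundant members per list, other arms and seed relatives, the 5 smallest p of the age difference, and called host genes. Rows outside this rule (miR-136-5p, miR-153-3p, miR-425-3p, miR-377-3p, miR-128-2-5p, miR-128-1-5p, miR-448-3p, miR-155-5p, miR-223-3p, miR-211-5p, miR-219a-5p, miR-219b-3p, miR-200b-5p and miR-141-5p) were chosen after their values were seen. So were the antisense-pair rows miR-3071-3p, miR-3065-5p, miR-142a-3p, miR-142b and miR-126b-5p. Genes given with values but without a call (Gpc1, R3hdm1, Htr2c, Drosha, Dicer1, Ago2, Dgcr8 and Ttr) were also outside the rule. Members and lists were chosen with earlier results of these data known.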

Additional observations from a re-analysis of the deposited data

How the results depend on the processing

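The count of called miRNAs at 9 months was 0 with median-of-ratios scaling, library totals, upper-quartile scaling, voom, at least 50 mean reads, non-robust spread, the replicate block, the 6 libraries of 9 months alone, without predicted rows, without antisense partners, without wild-type libraries 1 and 2, and with the choroid covariate (the last 3 chosen after seeing the data). It was 2 with DESeq2 and 1 with no filter (miR-211-5p, higher in APP/PS1). Leaving out 1 library gave 0 to 4, and 0 to 2 for the difference between ages, where no filter gave 1 (miR-1912-3p). Among the fits leaving out 1 miRNA library, calls appeared only without wild-type library 3 of 9 months. Same-numbered libraries had correlations of 0.10, -0.04 and 0.04 between their deviations from the group mean. For wild-type libraries 1 and 3 the APP/PS1 library of the same number was the closest match. Values this near 0 show no clear pairing and cannot exclude one. The replicate block gave 0 calls in both tests and 1 host gene (Arpp21). The host and machinery count of 1 became 0 with no filter and was 0 to 1 leaving out 1 library; the cause was not tested. Without wild-type libraries 1 and 2, miR-136-5p (0.32) and miR-153-3p (0.60) changed sign, as did miR-1298-5p (0.037) with the choroid covariate. With upper-quartile scaling, rows at an unadjusted p under 0.05 were 12 higher and 9 lower, against 12 and 17; they were 7 and 28 without predicted rows, 22 and 16 without wild-type libraries 1 and 2, and 27 and 40 with no filter.

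With 3 libraries a group, miRNAs of a few CPM rest on few reads, and intervals of rare rows are wide.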
